A study of Mus musculus with 6 samples.

Results

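The genes of oxidative phosphorylation described here are the 13 messenger RNAs of the mitochondrial genome and the nuclear genes for subunits of respiratory complexes I to IV and of ATP synthase (complex V). They were taken by name: every row whose symbol begins with mt-, and every row named as a Nduf, Sdh, Uqcr, Cox4 to Cox8 or Atp5 subunit, without the Ndufaf assembly factors (8 names) and 4 names ending in -ps with a digit. This gave 97 of the 22394 genes in the table: 13 mitochondrial genes, 82 nuclear subunit names and 2 names ending in plain -ps (Atp5l2-ps and Ndufab1-ps). Mitochondrial ribosomal and transfer RNAs and the subunit genes Cox8b and Cox8c were not analysed here. The libraries were made from the kidneys, taken whole, of E13.5 mouse embryos. The 3 control libraries came from Ptch1 (flox/+) embryos, which carry 1 floxed allele. The 3 mutant libraries came from Foxd1Cre;Ptch1 (flox/-) embryos, in which Cre recombinase is driven by Foxd1, a gene of the renal stromal progenitors, and the second Ptch1 allele is null in every cell. Presence of the Cre allele and the null allele therefore differ between the groups along with the deletion of the floxed allele, and these cannot be told apart. Whole kidney mixes many cell types, and the labels do not say whether a library is 1 embryo or a pool, so the p-values measure the spread between these samples only.

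Oxidative phosphorylation passes electrons from NADH (complex I) and succinate (complex II) through complexes III and IV to oxygen, and the proton gradient this builds drives ATP synthesis by complex V. Complex II is made from nuclear genes alone, whereas each of the other complexes joins nuclear subunits with a few made inside the mitochondrion. The mitochondrial messengers are cut from long transcripts of a circular genome present in many copies per cell, so their level is set by another machinery than that of the nuclear genes. In the developing kidney, nephron progenitors rely much on glycolysis, and the mature proximal tubule is known for its dense mitochondria.

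Mutant 2 was the shallowest library, with 13261588 reads counted to genes, and mutant 3 the deepest, with 47847925. The transcript of the targeted gene Ptch1, the Hedgehog receptor, was at 8.26, 7.91 and 7.60 FPKM (reads scaled to gene length and library depth, as deposited by the authors) in controls 1 to 3 and at 23.5, 35.8 and 29.8 in mutants 1 to 3 (limma log2 fold change 1.89 ± 0.16 SE, adjusted p = 0.00443). A total over the whole gene does not show which exons were read. Control 2 stood apart from the other 5 libraries in several respects that bear on the genes below. It had the lowest score for 6 nuclear-retained long RNAs (-0.71 against 0.03 to 0.68 elsewhere) and for 9 stromal markers (-0.67 against -0.06 to 0.48). It had the highest for 6 tested proximal tubule markers (1.18 against -0.93 to 0.77). Taken singly, Malat1 had its lowest share of reads in control 3 (0.0250%), with 0.0287% in control 2. A score averages, over the tested genes of a list, how far the log2 normalized count lies from the control mean. Controls 1 and 3 expressed the X-linked RNA Xist at 72.9 and 53.3 FPKM and the Y-linked gene Ddx3y at under 0.1 FPKM. The other 4 libraries had Ddx3y at 13.9 to 17.8 FPKM, and mutant 3 had Xist at 6.19 FPKM as well.

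A stretch of mouse chromosome 1 carries a copy of part of the mitochondrial genome, so reads from that part match 2 places. In GENCODE M21 (build GRCm38, the same assembly as mm10), 6 pseudogenes lie in a row on the minus strand at chr1:24611535-24616197, a span of 4663 bases. Their letters were identical to the mitochondrial genes over 681 bases for mt-Co2 and Gm28661, 678 for mt-Atp6 and Gm10925, 783 for mt-Co3 and Gm28437, 342 for mt-Nd3 and Gm28438, 876 for mt-Nd4 and Gm28439, and 479 for mt-Co1 and Gm29216. The edge of the copy lies inside mt-Co1. The 2 sequences below show it on mitochondrial positions chrM:6381-6433 (plus strand) and on chr1:24616145-24616197 (minus strand), where capitals mark the start of the identical stretch, at base 1067 of mt-Co1.
mt-Co1: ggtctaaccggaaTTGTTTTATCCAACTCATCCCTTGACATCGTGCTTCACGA
Gm29216: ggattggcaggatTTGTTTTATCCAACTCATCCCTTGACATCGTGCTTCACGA
Over the lengths given above the copies cannot be told from the mitochondrial genes. The first 60 bases of mt-Co2 (chrM:7013-7072, plus strand) and of its nuclear copy (chr1:24615506-24615565, minus strand) are shown as an example, with no difference to mark.
mt-Co2: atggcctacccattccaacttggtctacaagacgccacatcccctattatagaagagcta
Gm28661: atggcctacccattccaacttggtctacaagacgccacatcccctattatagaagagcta
The spacing is kept as well: 233 bases separate Gm28661 from Gm10925 on chromosome 1, and 233 bases separate the matching parts of mt-Co2 and mt-Atp6 on the mitochondrial genome. That gap holds most of mt-Atp8 (chrM:7766-7969), which has no annotated copy of its own.

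The share of each transcript found letter for letter in another annotated gene divided the mitochondrial genes by their deposited level. Of all 50-base windows, 98.0% to 100% were shared for mt-Co2, mt-Atp6, mt-Co3, mt-Nd3 and mt-Nd4l, and these 5 genes were listed at 0.252 to 32.8 FPKM in every library. No window was shared for mt-Nd1, mt-Cytb, mt-Nd6 and mt-Atp8, and at most 8.19% for mt-Nd2 and mt-Nd5. Among those, mt-Nd1, mt-Nd2, mt-Nd5 and mt-Cytb were listed at 177 to 4711 FPKM. mt-Co1 (51.1% shared) and mt-Nd4 (62.2% shared) keep long stretches of their own and were also high, at 774 to 2563 and 179 to 1973 FPKM. The exceptions to this order were mt-Nd6, the one messenger of the opposite strand, at 11.9 to 73.0 FPKM, and mt-Atp8, a gene of 204 bases, at 1.17 to 7.98 FPKM. The sources used here do not give how reads matching several places or the opposite strand were counted. The deposited levels of mt-Co2, mt-Atp6, mt-Co3, mt-Nd3 and mt-Nd4l are therefore uncertain, and no order among mitochondrial genes is read from them. Windows were searched in annotated transcripts only, and most of mt-Atp8 lies in the gap of equal length described above. Its level is therefore uncertain too, although no window of it was shared. Gm10925 was listed above mt-Atp6 in every library. It was at 61.9, 9.71 and 37.7 FPKM in controls and 52.8, 33.7 and 66.7 in mutants, against 23.9, 3.40 and 12.1, then 24.2, 14.3 and 21.2, for mt-Atp6. Both rows were lowest in control 2. Gm28439, at 0.956 to 12.3 FPKM, and Gm29216, at 4.70 to 53.2 FPKM, were listed below mt-Nd4 and mt-Co1 in every library.

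Among mitochondrial genes with reads of their own, control 2 was far below every other library, and the mutants overlapped the other 2 controls. mt-Nd1 (complex I, chrM:2751-3707) was at 4339, 702 and 3020 FPKM in controls 1 to 3 and at 4134, 3131 and 3940 in mutants 1 to 3. All 3 mutants lay between controls 3 and 1, and control 2 was 5.29-fold below the mean of the other 5 libraries. mt-Cytb (complex III, chrM:14145-15288), the gene for cytochrome b, was at 4711, 708 and 3522 FPKM in controls and 4112, 2437 and 4435 in mutants. mt-Co1 (complex IV, chrM:5328-6872), which encodes the catalytic subunit that reduces oxygen, was at 2079, 774 and 2563 FPKM in controls and 1716, 1824 and 2226 in mutants. Its gap to control 2 was 2.69-fold, smaller than for mt-Nd1, mt-Nd4 or mt-Cytb.

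In the genes for mt-Nd2, mt-Nd4, mt-Nd5 and mt-Nd6, other complex I subunits, control 2 was again the lowest library, and the order of the remaining libraries differed between them. mt-Nd2 (chrM:3914-4951) was at 3382, 373 and 1842 FPKM in controls and 2339, 1327 and 2628 in mutants. mt-Nd4 (chrM:10167-11544) was at 1973, 179 and 1076 FPKM in controls and 1577, 657 and 1663 in mutants, a gap of 7.78-fold between control 2 and the mean of the other libraries. mt-Nd5 (chrM:11742-13565) was at 1085, 177 and 801 FPKM in controls and 569, 573 and 1004 in mutants. Here mutants 1 and 2 were below controls 1 and 3, and control 2 was lowest again. mt-Nd6 (chrM:13552-14070, minus strand) was at 67.1, 11.9 and 45.9 FPKM in controls and 73.0, 71.3 and 47.1 in mutants. The other 5 libraries lay at 45.9 to 73.0 FPKM, and control 2 was 5.11-fold below their mean.

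The low rows repeated the pattern. mt-Co2 was at 27.4, 3.27 and 14.5 FPKM in controls and 32.8, 21.0 and 23.5 in mutants, and mt-Co3 at 22.1, 6.21 and 12.2 and then 22.3, 16.0 and 21.5. mt-Atp8, a small ATP synthase subunit, was at 6.29, 1.17 and 7.98 FPKM and then 7.59, 4.76 and 6.25. mt-Nd3 showed the smallest gap of the 12 tested genes, with 8.56, 2.52 and 3.04 FPKM in controls and 8.51, 3.44 and 7.39 in mutants. mt-Nd4l had 1 to 26 reads per library and was not tested. Its lowest library was mutant 2, at 0.252 FPKM, so it is the 1 mitochondrial gene of 13 in which control 2 was not lowest. Reads of the 13 genes together made up 0.367% of control 2, against 2.12% in control 1, 1.53% in control 3, and 1.78%, 1.21% and 1.92% in mutants 1 to 3.

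**Figure D1:**
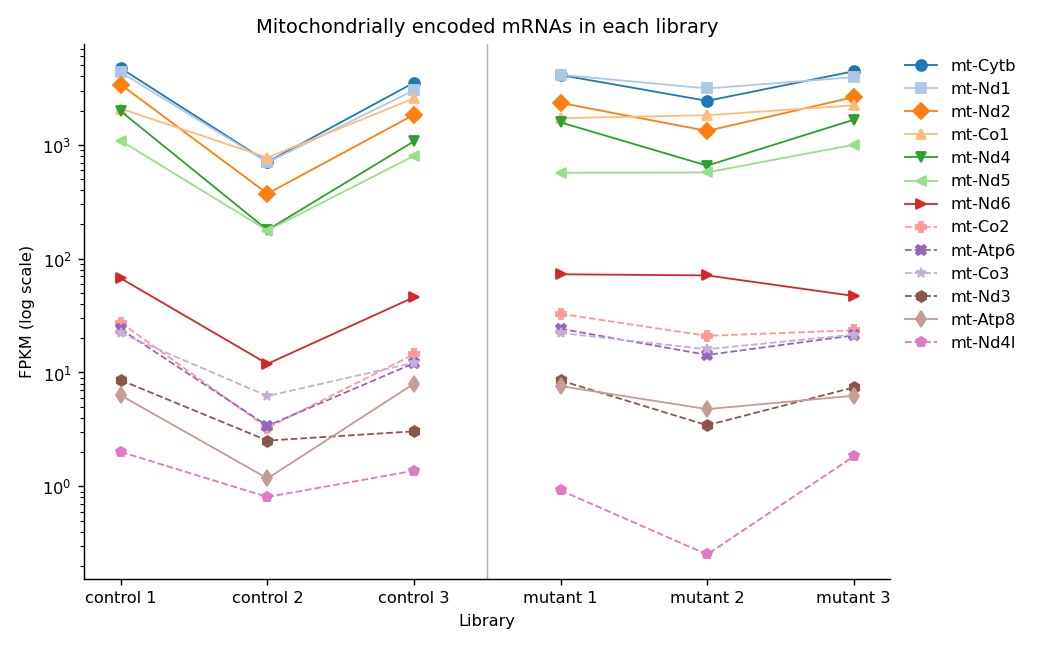
FPKM of the 13 mitochondrially encoded messenger RNAs (log scale) in each of the 6 libraries, with lines joining the points of a gene within a group; dashed lines are the 5 genes with at least 98.0% of their 50-base windows in another annotated gene. Control 2 is the lowest library for 12 of the 13 genes, and mt-Nd4l is lowest in mutant 2.

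No mitochondrial gene passed the test between genotypes. Of the 97 genes, 91 reached 10 normalized counts in at least 3 libraries and were tested, 12 of them mitochondrial. Across all 16933 genes tested, 52 (0.307%) had a limma adjusted p under 0.05, and 0 of the 91 did. An unadjusted limma p under 0.05 was reached by 1630 genes (9.63%), and again by 0 of the 91. All 12 mitochondrial genes had a positive log2 fold change, with a median of 0.68 and a range of 0.25 (mt-Co1) to 1.21 (mt-Co2), against a median of -0.01 over all genes tested. Without control 2 the median was -0.08 and 6 of the 12 turned negative. The size, and the sign of those 6, thus rested on 1 control library. Every fit without control 2 sets controls 1 and 3, with Ddx3y under 0.1 FPKM, against mutants with Ddx3y at 13.9 to 16.2 FPKM. Genotype and this sex-linked difference cannot be told apart in such a fit. With all 6 libraries the log2 fold change for mt-Co2 was 1.21 (SE 0.65, limma adjusted p = 0.566), and for mt-Nd1 it was 0.82 (SE 0.59, limma adjusted p = 0.629). In a typical mitochondrial gene the SD of the log2 normalized count was 1.40 over the controls and 0.38 over the mutants, where the typical gene of the whole table had 0.25 and 0.19.

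Set beside them, the nuclear subunits were close to level across the libraries. Their median deviation from the control mean was -0.05, -0.05 and 0.08 in controls 1 to 3 and 0.28, -0.03 and -0.07 in mutants 1 to 3 on the log2 scale. The mitochondrial medians in the same order were 1.05, -1.59 and 0.50, then 0.94, 0.22 and 0.91. Control 2, at the bottom for the mitochondrial genes, was thus by its median not far below the other libraries for the nuclear ones. It was the lowest library in 26 of the 79 (32.9%, against 28.0% of all genes tested). It took 1.32% of its reads from the nuclear subunits, against 1.11% to 1.39% in the other libraries. The number of mitochondrial reads per read of a nuclear subunit was 0.277 in control 2 and 1.01 to 1.90 elsewhere. Markers of stroma and nuclear-retained RNAs were also low in control 2, as given above, and their part in the mitochondrial gap was not tested. In whole tissue, fewer cells of a kind and less RNA per cell cannot be told apart.

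**Figure D2:**
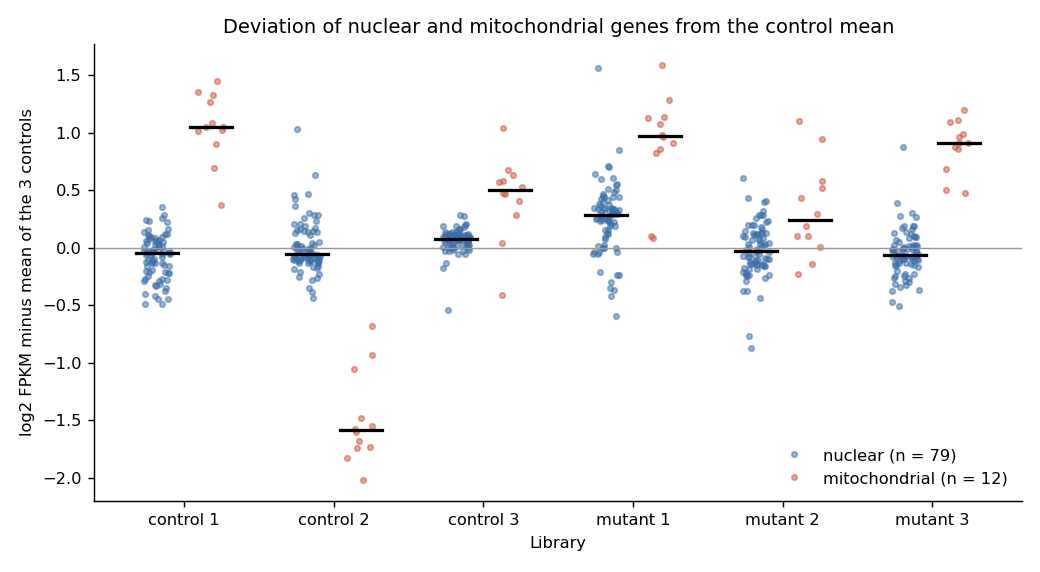
Each point is 1 tested gene, placed at its log2 FPKM minus the mean of its 3 controls, for the 79 nuclear and 12 mitochondrial genes in each library; black bars are medians. The nuclear points centre near 0 in every library except mutant 1, and the mitochondrial points fall below all others in control 2.

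No nuclear subunit passed the test between genotypes either. Of 79 tested, 53 had a positive and 26 a negative log2 fold change, the median was 0.09, and the range ran from -0.41 (Ndufs1) to 0.90 (Ndufa4l2). The lowest limma adjusted p was 0.531. Mutant 1 carries the positive side: it was the highest of the 6 libraries for 54 of the 79 genes, where it was highest for 19.8% of all genes tested, and without it the nuclear median was -0.02. All 3 mutants were above all 3 controls in 2 of the 91 tested genes, Ndufa2 and Cox6c (the latter named after its values were seen), against 7.57% of all genes tested. All 3 mutants were below all 3 controls in 0 of the 91, against 9.09% of all genes tested.

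In complex I, 28 of the 36 nuclear genes had a positive log2 fold change, with a median of 0.10. The 2 with the highest mean level were Ndufa2 and Ndufa7, small accessory subunits. Ndufa2 was at 177, 148 and 177 FPKM in controls and 271, 187 and 177 in mutants (limma log2 fold change 0.32 ± 0.18 SE, adjusted p = 0.573). Its mutants sat just above its controls, with mutant 3 and control 3 nearly equal and mutant 1 well above the rest. The smallest p values in the complex were those of Ndufa13 (log2 fold change 0.32) and Ndufb7 (0.35), both highest in mutant 1. The core subunits that carry the flavin and the iron-sulfur clusters were not all alike. Ndufs1, the largest core subunit, was at 30.9, 55.9 and 39.3 FPKM in controls and 27.0, 33.9 and 31.5 in mutants (limma log2 fold change -0.41 ± 0.21 SE, adjusted p = 0.553). Control 2 was its highest library, and mutants 2 and 3 were above control 1. Ndufv1 was likewise highest in control 2, at 100 FPKM, while Ndufs3, Ndufs7, Ndufs8 and Ndufv2 were highest in mutant 1.

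Complex II, which has no mitochondrial gene, had 4 negative values of 4, with a median of -0.19. Sdha, the flavoprotein that oxidises succinate, was at 64.0, 95.0 and 78.1 FPKM in controls and 58.2, 76.5 and 66.4 in mutants, so the groups overlapped. Sdhd, a membrane anchor, was at 79.6, 123 and 107 FPKM in controls and 86.3, 86.2 and 83.1 in mutants, which all fell between control 1 and control 3. Sdhb, the iron-sulfur subunit, was at 141 ± 11.8 FPKM in controls and 128 ± 11.6 in mutants (SD, n = 3). Sdhc, the other anchor, was at 57.0 ± 5.25 and 56.5 ± 3.60 FPKM.

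In complex III, 5 of 8 nuclear genes were positive and the median was 0.06. The small subunits Uqcr10 and Uqcrh led in level, at 197 ± 8.89 and 196 ± 3.85 FPKM in controls and 212 ± 32.3 and 214 ± 23.4 in mutants (SD, n = 3). The larger subunits were lower on average in mutants. Uqcrc2, a core protein, was at 92.5, 137 and 124 FPKM in controls and 91.0, 95.0 and 96.8 in mutants (limma log2 fold change -0.30 ± 0.16 SE, adjusted p = 0.558), and control 1 lay among the mutants. The next smallest p belonged to Uqcrb, a small subunit, with a log2 fold change of 0.20. Uqcrfs1, the Rieske iron-sulfur protein, was at 62.8, 118 and 84.5 FPKM in controls and 74.0, 80.0 and 61.9 in mutants, with control 2 again on top. Uqcrc1 was at 110, 142 and 130 FPKM in controls and 123, 115 and 107 in mutants, and the groups overlapped.

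Complex IV held the nuclear gene with the highest mean over the 6 libraries. Cox4i1, the form of subunit 4 used in most tissues, was at 546, 526 and 598 FPKM in controls and 693, 571 and 546 in mutants (limma log2 fold change 0.11 ± 0.14 SE, adjusted p = 0.772). Cox8a followed, at 363 ± 11.4 FPKM in controls and 385 ± 40.3 in mutants (SD, n = 3). Of 15 genes tested, 12 were positive with a median of 0.12, and 13 were highest in mutant 1. The subunits Cox5a and Cox5b differed in sign: Cox5a was at 61.4 ± 12 and 52.7 ± 5.96 FPKM, and Cox5b at 194 ± 12.4 and 207 ± 34.9. Neither difference exceeded the spread.

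In complex V, 8 of 16 genes were positive and the median was 0.00. The 16 were placed there by name and include Atp5s, which RefSeq lists under the symbol Dmac2l. Atp5b, the catalytic beta subunit (chr10:128083273-128090391, plus strand), was the most abundant nuclear gene after Cox4i1, at 477, 854 and 640 FPKM in controls and 496, 539 and 450 in mutants (limma log2 fold change -0.37 ± 0.23 SE, adjusted p = 0.596). Controls 2 and 3 were above all mutants and control 1 was among them. Atp5a1, its alpha partner, was at 286, 500 and 412 FPKM in controls and 316, 362 and 312 in mutants. Here too controls 2 and 3 were above all mutants, and control 1 was the lowest library. Atp5c1, the gamma subunit of the rotating stalk, was at 168 ± 24.4 and 148 ± 15.6 FPKM (SD, n = 3). The smallest p in the complex belonged to Atp5e, the epsilon subunit, at 101, 86.2 and 124 FPKM in controls and 150, 118 and 124 in mutants (log2 fold change 0.34, limma adjusted p = 0.543). Atp5e was lowest in control 2, the library in which Atp5b was highest, and highest in mutant 1.

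Across complexes the nuclear genes thus split between a list of core subunits and the rest. The list holds 20 genes and includes Cox4i1, Cox5a and Cox5b, which are not catalytic subunits of complex IV. Control 2 was the highest library in 12 of the 20 and in 3 of the other 59, against 30.6% of all genes tested. It was the lowest in 2 of the 20 and in 24 of the 59. Mutant 1 was highest in 6 of the 20 and in 48 of the 59. The median log2 fold change was -0.14 for the 20, with 6 positive, and 0.11 for the 59, with 47 positive. This is a description, since the list was drawn up with earlier results of these data known. The split ran along gene length too, with a median of 1698 bases for the 20 and 908 for the 59. A shift with length was also present across the whole table. Among all tested genes averaging 500 or more normalized counts, control 2 differed from the mean of controls 1 and 3 by a median log2 of -0.15 in 352 genes shorter than 1000 bases and 0.07 in 3522 genes of 4000 bases or more. Mutant 1 differed from the other mutants by 0.28 and -0.22 in the same classes. The median log2 fold change between genotypes was 0.11 in the short class, where 73.9% of genes were positive, and -0.11 in the longest, where 29.6% were. The 36 nuclear subunits shorter than 1000 bases had the median of all short genes, 0.11, with 30 positive (83.3% against 73.9%). The 40 longer ones had a median of -0.0008 with 20 positive. In these 40, mutant 1 was above the other mutants by a median log2 of 0.21. In all genes of 1000 to under 2000 bases that value was 0.11, and in longer ones it was negative. The part of gene length in the split by subunit was not tested further.

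**Figure D3:**
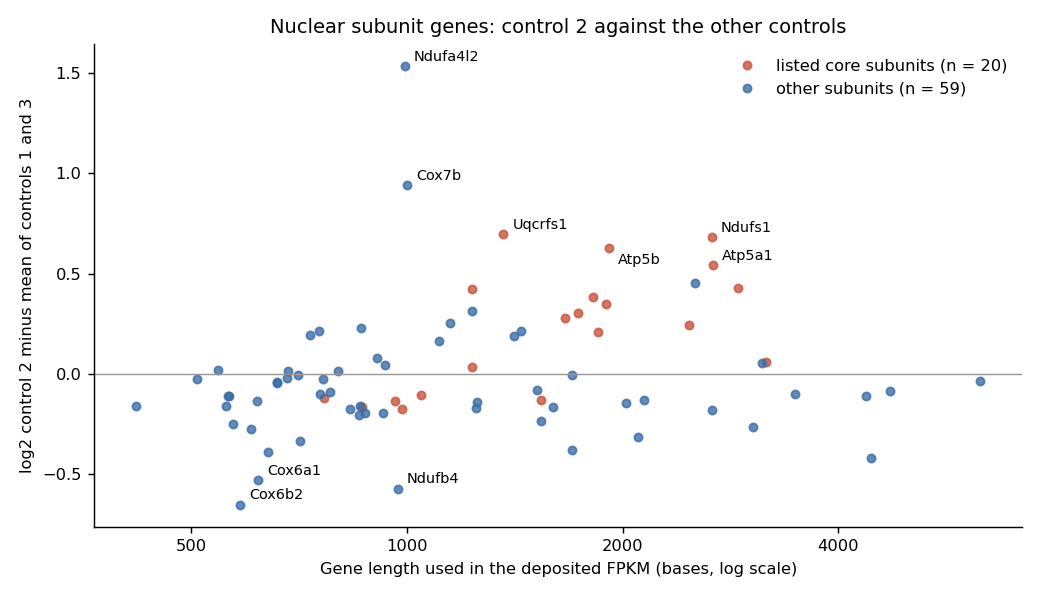
Log2 normalized count of control 2 minus the mean of controls 1 and 3 (vertical axis) against gene length (log scale) for the 79 tested nuclear genes; red points are the 20 listed core subunits and blue points the other 59. Most genes under 1000 bases lie below 0, and Ndufs1, Uqcrfs1, Atp5b and Atp5a1 lie above 0.5, with Ndufa4l2 and Cox7b higher still.

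The authors' deposited table, a count-based comparison of the same libraries, called 6 of the 91 genes. In the authors' deposited table, 3 mitochondrial genes were higher in mutants at an adjusted p under 0.05, against 3.07% of the 15881 genes with an adjusted p there: mt-Atp6 (log2 fold change 1.71, adjusted p = 0.000735), mt-Co3 (1.26, adjusted p = 0.00184) and mt-Nd5 (1.09, adjusted p = 0.00096). A further 3, all nuclear core subunits, were lower in the authors' deposited table, against 1.54% of genes: Atp5b (-0.63, adjusted p = 0.00554), Uqcrfs1 (-0.55, adjusted p = 0.0405) and Ndufs1 (-0.64, adjusted p = 0.0406). In each of the 6, control 2 was the library at the far end, lowest of 6 for the mitochondrial genes and highest of 6 for the nuclear ones. The limma log2 fold changes without control 2 were 0.19, 0.26 and -0.44 for mt-Atp6, mt-Co3 and mt-Nd5, and -0.16, -0.03 and -0.18 for Atp5b, Uqcrfs1 and Ndufs1. Of these, mt-Nd5 changed sign. Of the 6 nuclear copies, 3 were also called higher in the authors' deposited table, Gm10925 (1.55), Gm28437 (1.20) and Gm28439 (1.67).

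The weight that each library had in those deposited fold changes can be read from the data. Over 9950 genes with a normalized count above 200 in every library, a least-squares fit of the authors' deposited log2 fold changes on the log2 counts of the 6 libraries explained 99.9% of their variance. The fitted weights were 0.00 for control 1, -0.57 for control 2 and -0.44 for control 3, and 0.29, 0.28 and 0.44 for mutants 1 to 3. Equal weights within each group explained 82.7%. A model with 3 covariate groups, control 1 alone, control 2 with mutants 1 and 2, and control 3 with mutant 3, gives weights of 0.00, -0.57, -0.43, 0.29, 0.29 and 0.43 and explained 99.9%. No label or header names such a covariate, so this is what the deposited values imply and not a stated step. Under it control 1, the control with the highest median mitochondrial level and the lowest Atp5b level, had no influence, and control 2 had the most. Fitted with those 3 groups, limma gave log2 fold changes of 1.74 for mt-Atp6 (adjusted p = 0.0596), 1.26 for mt-Co3 (adjusted p = 0.0523) and -0.63 for Atp5b (adjusted p = 0.133), and called 0 of the 91 genes. Over all 16933 genes tested, that fit called 172 higher and 43 lower, with 2 residual degrees of freedom.

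**Figure D4:**
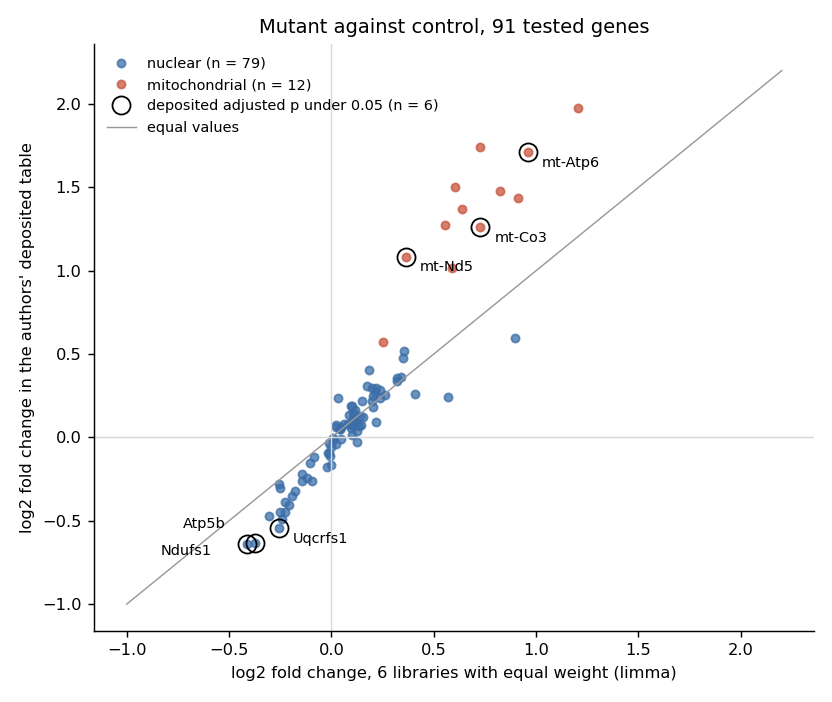
Log2 fold change (mutant against control) in the authors' deposited table against the limma value with equal weights, for 91 tested genes; the grey line marks equal values and black rings the 6 genes with a deposited adjusted p under 0.05. All 12 mitochondrial genes lie above the line, and mt-Atp6, mt-Co3 and mt-Nd5 are ringed at 1.71, 1.26 and 1.09.

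Several subunits of complex IV and V exist as tissue isoforms. In embryonic kidney the widespread form was the higher in each pair with a tissue-restricted one. Cox6a2, the heart and skeletal muscle form, had 6, 6 and 7 reads in controls 1 to 3 (0.404, 0.352 and 0.419 FPKM) and 0 in each mutant. It was too low to be tested. Over the groups, 19 reads stood against 0. With 3 reads taken as the upper limit that 0 allows over the 3 mutants together, the control level was 7.22-fold above that limit per read sequenced. Neither the counting error of the 19 reads nor the spread between samples was included, so 7.22 is not a lower bound. Its partner Cox6a1, the form of most tissues, was at 365, 223 and 285 FPKM in controls and 406, 257 and 324 in mutants. Skeletal muscle markers were lower in mutants as well. Of 12 listed genes 11 were tested, all 11 had a negative log2 fold change and 5 were called lower by limma. Their summed level was 49.3 to 82.1 FPKM in controls and 19.98 to 26.8 in mutants, with no listed marker at 0 in all mutants. The myosin gene Myh3 was at 4.71, 4.25 and 7.36 FPKM in controls and 0.113, 0.372 and 0.128 in mutants (log2 fold change -4.85, limma adjusted p = 0.00529). The part of muscle tissue in the Cox6a2 reads was not tested.

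Ndufa4l2, a homolog of the complex IV subunit Ndufa4 that is induced by low oxygen, had the largest log2 fold change of the nuclear genes. It was at 2.77, 7.95 and 2.66 FPKM in controls and 11.5, 4.74 and 7.11 in mutants (limma log2 fold change 0.90 ± 0.47 SE, adjusted p = 0.563). Control 2 was the second highest library, so the groups overlapped. Cox4i2, the other isoform linked to low oxygen, was at 3.81, 5.22 and 5.44 FPKM in controls and 8.58, 5.20 and 5.73 in mutants (log2 fold change 0.41, limma adjusted p = 0.620). Mutant 1 alone stood above the rest. Both isoforms are known from mural cells of small vessels. The 10 mural markers summed to 65.1, 98.3 and 80.9 FPKM in controls and 135, 91.5 and 145 in mutants, with none at 0. Of the 10, 7 had a positive and 3 a negative log2 fold change, and limma called 0. Their score in mutant 2 was -0.19, below controls 2 and 3 at 0.33 and 0.00. The part of mural cells in the 2 genes was not tested. Ndufa4 itself was at 138 ± 23.6 FPKM in controls and 121 ± 21.9 in mutants (SD, n = 3).

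Among the remaining sets, Cox6b2, the form known from testis, was at 39.4, 24.7 and 38.3 FPKM in controls and 52.0, 36.5 and 41.2 in mutants, well below Cox6b1 at 303 ± 18.5 and 328 ± 47.5. Cox7a1, the muscle and brown fat form, had 5 to 19 reads per library. It was at 0.661, 0.740 and 1.43 FPKM in controls and 1.69, 0.771 and 0.819 in mutants. Unlike Cox6a2, this muscle form was thus not lower in mutants, and the groups overlapped. Cox7a2, the liver-type form, was at 204 ± 12 FPKM in controls and 193 ± 25.7 in mutants (SD, n = 3). Cox7a2l, which joins complexes III and IV into supercomplexes, was at 108 ± 15.6 and 117 ± 12.4 FPKM. Cox7b2, a testis form, had 0 to 3 reads per library. The widespread Cox7b was at 117, 253 and 149 FPKM in controls and 268, 249 and 215 in mutants (limma log2 fold change 0.57 ± 0.26 SE, adjusted p = 0.531), the smallest p of all 91 genes. Without control 2 its log2 fold change was 0.88 with a limma adjusted p of 0.0402, the 1 call among these genes under any left-out library. That fit called 112 genes higher and 46 lower of 16933 tested, so the call is not read as particular to Cox7b. The 3 genes for the c-ring protein of ATP synthase, which differ in their import signals, were at unequal levels: Atp5g3 at 406 ± 62.7 and 405 ± 56.2 FPKM, Atp5g2 at 208 ± 26.9 and 180 ± 55.0, and Atp5g1 at 31.7 ± 2.06 and 32.0 ± 4.77. Atp5g2 shares 38.3% of its 50-base windows with other genes, mostly the pseudogene Gm10175, so its level is less certain.

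**Figure D5:**
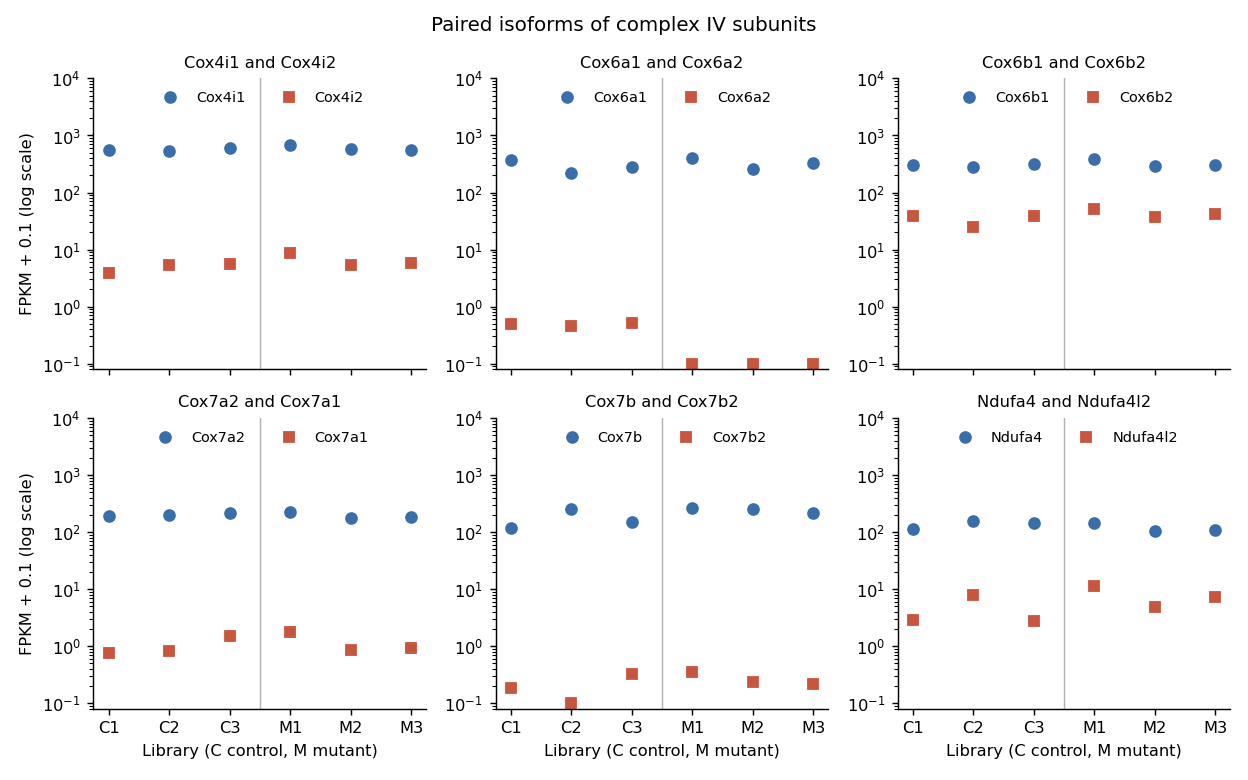
FPKM plus 0.1 (log scale) of 6 pairs of complex IV isoforms in each library, with the widespread form in blue and the restricted form in red. The widespread form is higher throughout, and Cox6a2 is at 0 FPKM in all 3 mutants.

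Many nuclear genes of the respiratory chain are known to carry a GC-rich promoter element for nuclear respiratory factor 1 (NRF1), whose usual site holds the letters GCGCATGC. RefSeq promoter sequences (build GRCm38.p6, 250 bases before to 50 after the start) were matched for 68 of the 82 nuclear subunit names. Searched on both strands, GCGCATGC was found in 10 of the 68 (14.7%), against 3.05% of 27025 genes with a promoter. The 10 genes came from every complex: Ndufa6, Ndufa8 and Ndufa11 (I), Sdhb (II), Uqcr11 and Uqcrc1 (III), Cox6a1 (IV), and Atp5g2, Atp5k and Atp5l (V). To show the shared string across the 5 complexes, 1 gene of each is given in the direction of the gene, with the string or its reverse complement in capitals. The windows are Ndufa8 at chr2:36049304-36049381 (minus), Sdhb at chr4:140961182-140961259 (plus), Uqcrc1 at chr9:108936643-108936697 (plus), Cox6a1 at chr5:115349078-115349155 (minus) and Atp5k at chr5:108434407-108434484 (minus).
Ndufa8: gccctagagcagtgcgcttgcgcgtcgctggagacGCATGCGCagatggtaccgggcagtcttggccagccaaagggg
Sdhb: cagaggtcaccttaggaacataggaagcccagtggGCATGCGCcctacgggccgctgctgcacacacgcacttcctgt
Uqcrc1: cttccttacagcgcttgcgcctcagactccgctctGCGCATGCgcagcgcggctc
Cox6a1: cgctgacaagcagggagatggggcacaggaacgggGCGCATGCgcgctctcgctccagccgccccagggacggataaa
Atp5k: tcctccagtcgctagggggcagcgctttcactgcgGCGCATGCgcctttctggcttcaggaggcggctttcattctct
These genes did not move as 1 group: Cox6a1 was lowest and Uqcrc1 highest in control 2. The 10 tested genes with the string had a median log2 fold change of 0.06 with 7 positive, and the 56 tested genes without it 0.08 with 38 positive. Other strings searched on both strands were CCGGAAGT, the core of sites for GABP and other ETS factors (7.35% of the 68 against 4.31% of all promoters), the YY1 string AAGATGGCG (10.3% against 1.64%) and TATAAA (8.82% against 15.7%). A match is a description of these letters and not a site shown to be bound.

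The genes that build, feed and read the respiratory chain were compared by lists drawn up with earlier results of these data known, and limma called 0 of them in either direction. In 8 of the 9 lists the median lay below the -0.01 of all genes. The ninth was the list of 6 nuclear copies of mitochondrial genes, with a median of 0.80. The medians of all abundant genes ran from 0.11 in the shortest length class to -0.11 in the longest. The part of gene length in these lists was not tested. All 17 genes of the tricarboxylic acid cycle and pyruvate dehydrogenase had a negative log2 fold change, with a median of -0.19. Of the 17, 3 had an unadjusted limma p under 0.05, against 9.63% of all genes tested. Suclg2, a succinyl-CoA ligase subunit, was at 36.0, 53.4 and 45.9 FPKM in controls and 30.1, 32.2 and 32.2 in mutants (log2 fold change -0.50, limma adjusted p = 0.369). Its groups did not overlap, and 9.09% of all genes tested had all mutants below all controls. Genes of these lists were named for a small p, so a lack of overlap in them is not a separate result. Cs, citrate synthase, was at 87.0 ± 8.44 and 69.0 ± 4.94 FPKM (SD, n = 3, log2 fold change -0.33, limma adjusted p = 0.472). The authors' deposited table had 2 of the 17 lower, Suclg2 (-0.66, adjusted p = 0.00712) and Dlat (-0.71, adjusted p = 0.0211). It also called 2 import, carrier and chaperone genes lower, and 1 glycolysis gene higher and 3 lower. Electron carriers, assembly factors and mitochondrial ribosomal proteins had 1 lower each. Of all genes there, 1.54% were lower and 3.07% higher. The mean of the tricarboxylic acid list was 0.20 in control 2, -0.23 in control 1 and 0.03 in control 3, against -0.27 to -0.20 in mutants, so control 1 lay with the mutants.

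Of 17 import, carrier and chaperone genes 16 were negative, with a median of -0.18. Hspd1, the matrix chaperonin, was at 220, 268 and 250 FPKM in controls and 154, 203 and 177 in mutants (log2 fold change -0.47, limma adjusted p = 0.401), with no overlap. Tomm20, an outer membrane receptor, was at 32.2 ± 3.12 and 26.1 ± 0.875 FPKM (SD, n = 3). Electron carriers and ubiquinone synthesis had 16 of 20 negative and a median of -0.19. Cycs, cytochrome c, was at 30.9, 38.6 and 37.9 FPKM in controls and 28.6, 27.8 and 27.7 in mutants (log2 fold change -0.35, limma adjusted p = 0.446). All its mutants were below all its controls, against 9.09% of all genes tested. Like Hspd1, it was named for its small p. Glycolysis, the other source of ATP, had 15 of 19 negative with a median of -0.21. The smallest p among them belonged to Pgam1, at 100 ± 24.3 and 68.1 ± 5.50 FPKM (SD, n = 3).

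Transcription and RNA handling in mitochondria, the machinery behind the mitochondrial messengers, had 17 of 21 genes negative with a median of -0.12. Pnpt1, a mitochondrial RNA-degrading enzyme, was at 22.8, 16.6 and 17.8 FPKM in controls and 12.1, 15.5 and 14.7 in mutants (log2 fold change -0.43, limma adjusted p = 0.462), and Elac2, which trims transfer RNAs, at 15.1 ± 1.15 and 11.8 ± 1.14 (SD, n = 3, log2 fold change -0.36, limma adjusted p = 0.444). The list's mean in control 2 was 0.03 and that in controls 1 and 3 was -0.01 and -0.02, although the mitochondrial messengers there were lowest. Nuclear regulators such as Gabpa, at 17.8 ± 3.43 and 14.4 ± 1.29 FPKM, had a median of -0.13 over 11 tested genes. The 48 assembly factors had a median of -0.07 with 20 positive, and the 78 mitochondrial ribosomal proteins a median of -0.05 with 30 positive. The 85 tested cytosolic ribosomal protein rows, short and abundant like the small subunits, had a median of 0.07 with 60 positive. They took 9.59% of the reads in mutant 1 and 7.25% to 7.83% in the other libraries.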

How the data were processed

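Messenger RNA of whole E13.5 kidneys was sequenced in 3 control and 3 mutant libraries. Trim Galore, STAR 2.6.0c, HTSeq 0.6.1p2, DESeq2 and build mm10 are named, with no role or order, per the submitters' processing notes. The deposited table holds FPKM per library (unit taken from the values, since no header names it), and the authors' mean normalized signal, log2 fold change with its standard error, Wald score and p-value, per the file headers. FPKM times mean signal over mean FPKM gave size-factor normalized counts, and 100% of 134364 values were whole reads to within 1e-06. The same step gave each gene's length. limma 3.58.1 (R 4.3.3, intensity trend, no covariate) was fitted to log2(normalized count + 1) of 16933 genes with at least 10 in 3 libraries, with Benjamini-Hochberg adjustment over all. The test was checked on simulated counts. No count model was run, and the authors' deposited comparison stands in for it. Named genes are all mitochondrial messengers, isoform sets, core subunits, and per complex the 2 highest and the 2 of smallest p and up to 3 per companion list. Members and lists were chosen with earlier results of these data known. Identifiers matched GENCODE M21 for 99.8% of genes. One named gene is not reported here.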

Additional observations from a re-analysis of the deposited data

How the results depend on the processing

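No gene of the set was called under pseudocounts of 0.5 or 10, no filter, at least 1 FPKM in 3 libraries, log2(FPKM + 1), scaling to the total or to the upper quartile, or library weights; scaling to the total without mitochondrial genes and the fit with 3 covariate groups, both chosen after seeing the data, called none either. Over all 16933 genes tested, library weights called 323 higher and 139 lower. The authors' deposited comparison called 3 mitochondrial and 3 nuclear genes. Leaving out 1 library at a time called 0 mitochondrial and 0 to 1 nuclear genes, with medians of -0.08 to 1.23 and -0.02 to 0.12. The lowest mitochondrial median came without control 2 and the lowest nuclear one without mutant 1. With library weights, in which control 2 counted least, the medians were 0.24 and -0.02, and mt-Atp8 (-0.20), mt-Co1 (-0.19) and mt-Nd5 (-0.012) reversed. With 1 library left out, mt-Atp8 ranged from -0.21 to 1.07, mt-Co1 from -0.27 to 0.59, mt-Cytb from -0.20 to 1.17, mt-Nd2 from -0.31 to 1.28, mt-Nd4 from -0.28 to 1.45 and mt-Nd5 from -0.44 to 0.87, each negative only where control 2 was the library left out. With the replicate number as a block (replicate block), the medians stayed at 0.68 and 0.09 and 0 genes of the set were called; same-numbered libraries correlated at 0.00, -0.10 and 0.31 in their deviations, so the numbers were not taken to pair samples. Depth limited mt-Nd4l, Cox6a2, Cox7a1 and Cox7b2, which had at most 26 reads in any library.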

Other observations

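Cox7b (chrX:106015700-106022450, plus strand) was chosen here after its values were seen. Its 2 lowest libraries, control 1 (117 FPKM) and control 3 (149 FPKM), are the 2 with Xist at 53.3 FPKM or more and with Ddx3y under 0.1 FPKM, and the 4 libraries with Ddx3y lay at 215 to 268 FPKM. Controls 1 and 3 were both below the other 4 libraries in 1236 of 16933 genes tested (7.30%) and in 2 of the 79 nuclear subunits, Cox7b and the autosomal Ndufa4l2. The other X-linked subunits did not split this way: Ndufa1 was at 81.5, 74.7 and 85.4 FPKM in controls 1 to 3 and Ndufb11 at 94.6, 105 and 105. Ndufa12 and Atp5g2 were lowest in mutant 2, the shallowest library, at 38.5 FPKM against 60.9 to 80.1 elsewhere and 121 against 178 to 230.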
